A study of Homo sapiens with 6 samples.

Results

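This account concerns 38 genes of mitochondrial quality control and upkeep, listed by gene name for their known roles. The rule uses no measured value, but the list was drawn up with earlier results of these data known. They encode 6 receptors and regulators of mitophagy, 3 fusion proteins, 5 fission proteins, 6 proteins of mitochondrial DNA maintenance and transcription, 4 regulators of biogenesis, 8 proteins of import and outer membrane assembly, 4 proteases and 2 membrane proteins, TSPO and UCP2. All 38 were present among the 79172 gene names of the deposited table, and all 38 passed the filter on low counts that left 16734 genes for testing. The libraries came from the cell line Huh7, which was established from a human hepatocellular carcinoma. The comparison was between 3 libraries of control cells and 3 of cells overexpressing HK1, the gene of hexokinase 1, which phosphorylates glucose and binds the outer mitochondrial membrane. How HK1 was introduced, whether the lines were clones and what the control cells received are not given in the sources used here. Nothing in the labels says that the 3 libraries of a group came from separate cultures, so p-values measure the spread between these libraries, which may be technical.

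Mitochondria are kept in number and quality by opposing processes. Fusion and fission reshape the network, mitophagy carries damaged or surplus mitochondria to lysosomes, and new mitochondria need nuclear-encoded proteins that are imported through the TOM complex of the outer membrane and the TIM complexes of the inner membrane. Mitophagy is started either by the kinase PINK1, or by receptors of the outer membrane, such as BNIP3 and BNIP3L, that bind the autophagosome protein LC3 directly. Biogenesis is driven by coactivators of the PGC-1 family acting with factors such as NRF1 and GABP on nuclear genes. Among these genes is TFAM, whose protein packages mitochondrial DNA and acts as a factor for its transcription.

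HK1 itself gave 13 to 15 counts in the control libraries and 9723 to 11101 in the HK1-overexpressing libraries, so every library matched its label. Library totals ran from 16771835 to 20823072 counts, and the 38 genes together took 0.345% to 0.349% of the counts of each library. Mitochondrially encoded genes took 8.06% to 9.11%. The hepatocyte marker HNF4A stood at 155.3 ± 4.85 CPM in controls and 156.6 ± 3.88 CPM in HK1-overexpressing libraries (SD, n = 3), where CPM is the count scaled to a common library total, as described under the processing. Of the other 7 hepatocyte and hepatoma markers, all had negative log2 fold changes, and ALB, AFP, APOA1, TTR and GPC3 fell, by 0.28 to 0.70 on the log2 scale. The part of this in the results for the 38 genes was not tested. The leukocyte marker PTPRC gave 1 to 3 counts and the fibroblast marker COL1A1 2 to 8 counts per library. The endothelial marker PECAM1 was detected in every library, at 80 to 114 counts. The control libraries differed more from each other than the HK1-overexpressing libraries did, with a chi-square per degree of freedom of 5.1 to 11.4 against 1.58 to 2.29 over genes. In bulk RNA of this kind, fewer cells with a transcript and less of it per cell cannot be told apart.

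Of the 38 genes, 3 rose and 2 fell in HK1-overexpressing cells. The mitophagy receptor genes BNIP3L and BNIP3 and the outer membrane protein gene TSPO rose, by 1.16-fold to 1.31-fold. The biogenesis factor gene NRF1 and the import channel gene TOMM40 fell, to 0.811 and 0.860 of the control level. The other 33 genes did not pass edgeR's test at an adjusted p of 0.05 with Benjamini-Hochberg adjustment over all tested genes. The 5 called genes were 13.2% of the 38, against 8.02% of all tested genes. The 3 that rose were 7.89%, against 3.87% of all tested genes, and the 2 that fell were 5.26%, against 4.15%. At an unadjusted p under 0.05, 3 of the 38 had positive and 5 had negative log2 fold changes. Over all 16734 tested genes these counts were 1785 and 1882. Without control replicate 1, 6 fell, and without control replicate 2, 3 fell, while 3 rose in both cases, and the share of all tested genes called was 13.1% and 10.6%. When control replicate 3 was left out, or HK1-overexpressing replicate 1 or 3, only BNIP3L was called, and without HK1-overexpressing replicate 2 only BNIP3L and TSPO were. Under these 4 omissions 3.13% to 4.71% of all tested genes were called.

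Every HK1-overexpressing library lay above every control for 4 of the 38 genes, or 10.5%, against 14.0% of all tested genes. Every HK1-overexpressing library lay below every control for 5 genes, or 13.2%, against 13.9%. Both shares were close to or under the background. The median log2 fold change of the 38 genes was -0.03, with a range from -0.30 to 0.39, beside a median of 0.01 over all tested genes. The sign was negative for 27 and positive for 11 of the 38. Over all 16734 tested genes it was negative for 8130 and positive for 8604. When libraries were scaled by their totals alone, without TMM factors, the median over all tested genes was 0.05, that of the 38 genes was 0.01, and 18 were negative.

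The precision was narrow enough to bound most changes. The 95% interval of the log2 fold change extended 0.10 to 0.25 to either side of the estimate, with a median of 0.13. For 37 of the 38 genes the interval lay inside a 1.5-fold change in either direction, the exception being TSPO. For 30 genes it lay within 0.3 of 0 on the log2 scale.

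**Figure D1:**
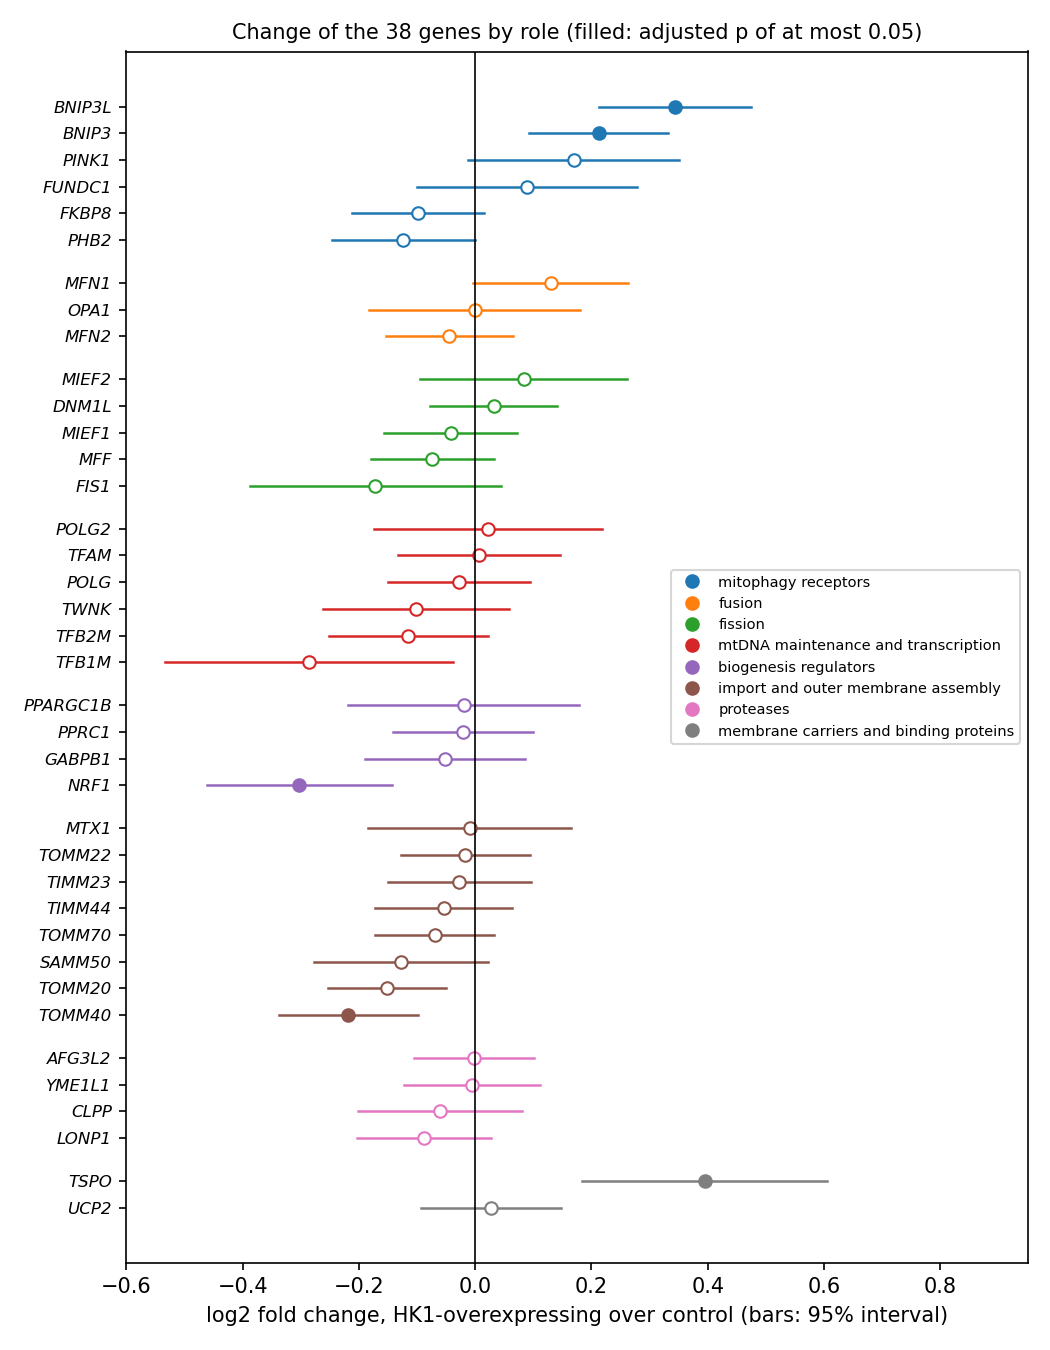
Log2 fold change of each of the 38 genes, HK1-overexpressing over control (x axis), with genes grouped by role (y axis), bars for the 95% interval and filled points for an adjusted p of at most 0.05. The 5 filled points are BNIP3L, BNIP3, TSPO, NRF1 and TOMM40, and all points lie between -0.30 and 0.39.

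The mitophagy group held 2 of the 5 calls, or 33.3% of its 6 genes, against 8.02% of all tested genes. This share rests on few genes, listed with earlier results of these data known. BNIP3L, also called NIX, encodes an outer membrane receptor known for clearing mitochondria during red blood cell maturation, and lies on chromosome 8 at 26383054 to 26505636 of hg38, on the plus strand. Its levels were 42.3, 39.7 and 43.6 CPM in control replicates 1, 2 and 3 and 54.0, 52.4 and 53.1 CPM in HK1-overexpressing replicates 1, 2 and 3. All HK1-overexpressing libraries lay above all controls, with a narrower spread than among the controls. The mean went from 41.9 ± 1.97 to 53.2 ± 0.766 CPM (SD, n = 3), a log2 fold change of 0.34 with a standard error of 0.0611, a 95% interval of 0.21 to 0.48 and edgeR's adjusted p of 0.00285. The call held in all 17 alternative analyses, with log2 fold changes of 0.31 to 0.38. Other genes shared 12.2% of its exon bases, most of them PNMA2 on the opposite strand, and the counting did not use strand.

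BNIP3, the related receptor whose transcription is known to respond to low oxygen, lies on chromosome 10 at 131967684 to 131981967, on the minus strand. It gave 64.5, 63.8 and 67.1 CPM in the 3 controls and 75.5, 77.9 and 73.0 CPM in the 3 HK1-overexpressing libraries. The groups did not overlap. The mean rose from 65.1 ± 1.72 to 75.4 ± 2.46 CPM (SD, n = 3), a log2 fold change of 0.21 with a standard error of 0.0561, a 95% interval of 0.09 to 0.33 and edgeR's adjusted p of 0.0317. The call was lost without control replicate 3 (edgeR's adjusted p of 0.0632) and without HK1-overexpressing replicate 1, 2 or 3 (0.12, 0.201 and 0.0839), while the log2 fold change stayed between 0.19 and 0.25. The table also held 45 named pseudogenes of BNIP3 with 558 counts in all, against 8117 for BNIP3, so some of its fragments may have been lost or split.

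The other 4 genes of the group were not called. PINK1, the kinase that marks depolarised mitochondria, gave 20.3, 20.4 and 17.4 CPM in controls, and the HK1-overexpressing cells gave 20.7, 21.4 and 23.3 CPM. The groups did not overlap, by a margin of under 1 CPM, and edgeR's adjusted p was 0.263 for a log2 fold change of 0.17 with a 95% interval of -0.01 to 0.35. PINK1-AS, an antisense gene, overlaps 39.5% of the exon bases of PINK1, and the counting could not separate them by strand. FUNDC1, a receptor linked to mitophagy under low oxygen, had a log2 fold change of 0.09, with a 95% interval of -0.10 to 0.28. PHB2, an inner membrane prohibitin that binds LC3 once the outer membrane is ruptured, gave 197.6, 229.8 and 210.8 CPM in controls, against 189.5, 200 and 195.9 CPM with HK1 overexpressed. Its groups overlapped, with a log2 fold change of -0.12, a 95% interval of -0.25 to -0.00 and edgeR's adjusted p of 0.224. FKBP8, an outer membrane receptor that also binds BCL2, had a log2 fold change of -0.10 with an interval of -0.21 to 0.01. Within the mitophagy group the values therefore spanned both signs, with 4 positive and 2 negative.

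**Figure D2:**
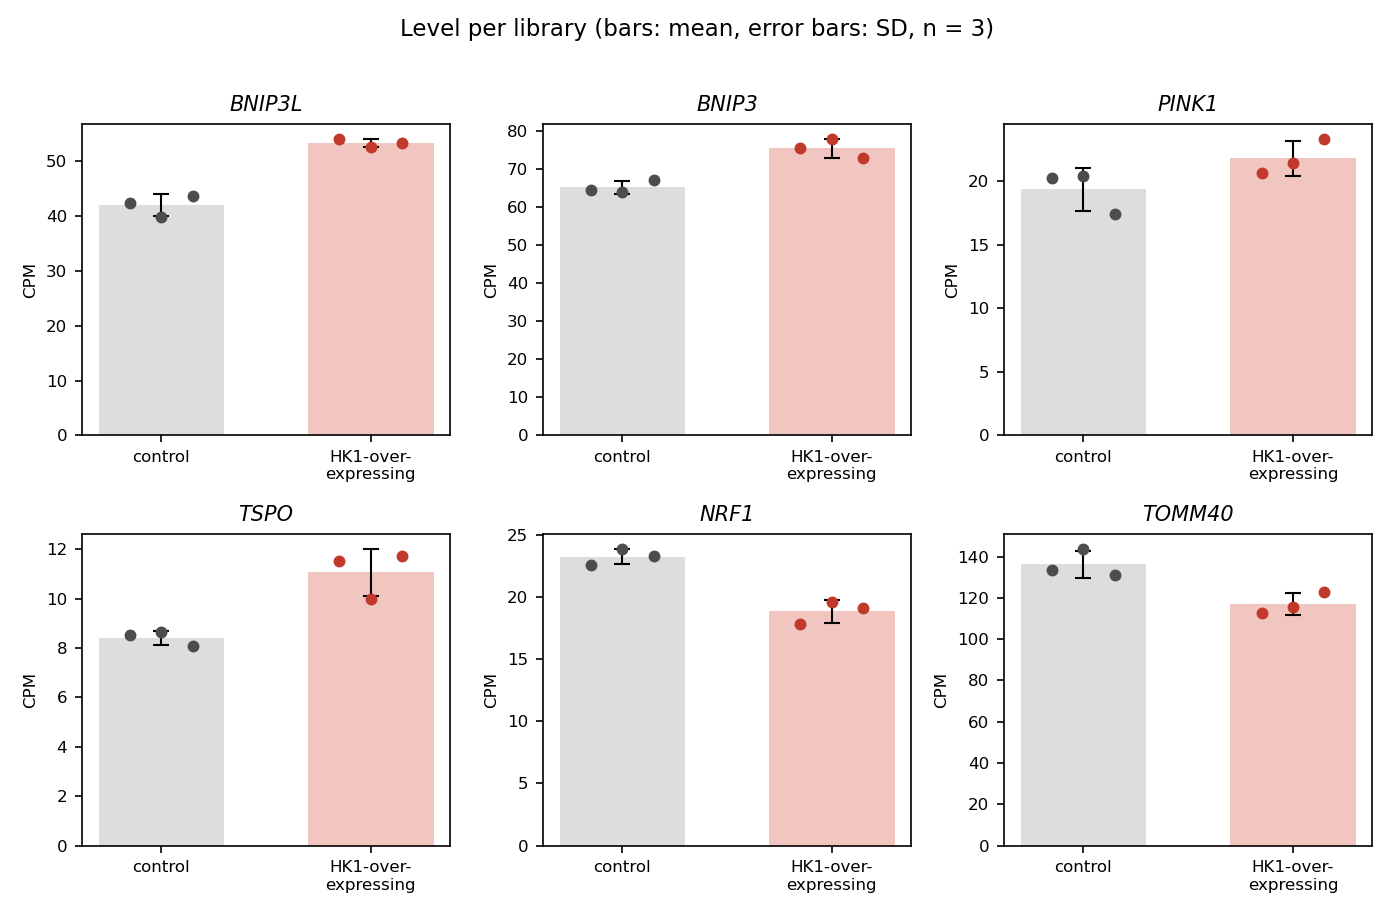
Level in CPM (y axis) of BNIP3L, BNIP3, PINK1, TSPO, NRF1 and TOMM40 in each library (points) of the control and HK1-overexpressing groups (x axis), with bars for the mean and error bars for the SD of 3 libraries. The groups do not overlap in any of the 6 panels, and PINK1 is the only one of the 6 that was not called.

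TSPO, the cholesterol-binding translocator protein of the outer membrane that was once known as the peripheral benzodiazepine receptor, lies on chromosome 22 at 43151547 to 43163242, on the plus strand. It was expressed at 8.51, 8.64 and 8.09 CPM in controls, against 11.5, 9.98 and 11.7 CPM with HK1 overexpressed. The groups did not overlap, although HK1-overexpressing replicate 2 lay nearer to the controls than the other two did. The mean rose from 8.41 ± 0.289 to 11.1 ± 0.953 CPM (SD, n = 3), a log2 fold change of 0.39 with a standard error of 0.0983, a 95% interval of 0.18 to 0.61 and edgeR's adjusted p of 0.0233. DESeq2 gave an adjusted p of 0.0746, and the edgeR call was lost without control replicate 3 (0.0943) and without HK1-overexpressing replicate 1 (0.109) or 3 (0.126). UCP2, an inner membrane carrier of the uncoupling protein family, stood at 87.2 ± 4.84 and 88.8 ± 1.00 CPM (SD, n = 3), a log2 fold change of 0.03 with a 95% interval of -0.09 to 0.15.

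Among the 4 regulators of biogenesis, only NRF1 was called, or 25% of these few genes, against 8.02% of all tested genes. NRF1, nuclear respiratory factor 1, activates nuclear genes for respiratory chain, import and mitochondrial DNA proteins, and lies on chromosome 7 at 129611720 to 129757082, on the plus strand. Its levels were 22.6, 23.9 and 23.4 CPM in controls, against 17.8, 19.6 and 19.1 CPM with HK1 overexpressed. No control lay as low as the highest HK1-overexpressing library. The mean fell from 23.3 ± 0.625 to 18.9 ± 0.929 CPM (SD, n = 3), a log2 fold change of -0.30 with a standard error of 0.0742, a 95% interval of -0.46 to -0.14 and edgeR's adjusted p of 0.0214. The call was lost without control replicate 3 (edgeR's adjusted p of 0.0725) and without HK1-overexpressing replicate 1, 2 or 3 (0.14, 0.0689 and 0.0862), and the log2 fold change stayed between -0.33 and -0.26. GABPB1, a subunit of the GABP factor, and the coactivator genes PPARGC1B and PPRC1 of the PGC-1 family had log2 fold changes of -0.05, -0.02 and -0.02. Their 95% intervals all lay between -0.22 and 0.18.

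None of the 6 genes of mitochondrial DNA maintenance and transcription was called by edgeR, DESeq2 or limma-voom, and 1 was lower at an unadjusted p under 0.05 in edgeR. By comparison, edgeR called 8.02% of all tested genes, and 1882 of the 16734 were lower at an unadjusted p under 0.05. TFAM stood at 139.4, 116.1 and 135.8 CPM in controls, against 134.2, 131.1 and 127.9 CPM with HK1 overexpressed. All 3 HK1-overexpressing values lay inside the range of the controls, with a log2 fold change of 0.01 and a 95% interval of -0.13 to 0.15. TFB1M, an rRNA methyltransferase of the mitochondrial ribosome, gave 10.3, 9.58 and 9.43 CPM in controls, against 9.49, 7.52 and 7.12 CPM with HK1 overexpressed. Only HK1-overexpressing replicate 1 reached the control range, and edgeR's adjusted p was 0.156 for a log2 fold change of -0.29. Other genes shared 38.7% of the exon bases of TFB1M, TIAM2 on the opposite strand alone 30.7%. TFB2M, which melts promoters for the mitochondrial RNA polymerase, TWNK, the replicative helicase, POLG, the catalytic subunit of the DNA polymerase, and POLG2, its accessory subunit, had log2 fold changes from -0.12 to 0.02.

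The import and outer membrane assembly genes had 1 call in 8, or 12.5%, against 8.02% of all tested genes. All 8 log2 fold changes were negative, with a median of -0.06. Over all 16734 tested genes, 8130 were negative and 8604 positive. With library totals only, 5 of the 8 were negative, and without control replicate 2 also 5. TOMM40, the channel-forming subunit of the TOM complex, lies on chromosome 19 at 44890569 to 44903689, on the plus strand. It gave 133.7, 143.8 and 131.2 CPM in controls, against 112.6, 115.8 and 122.8 CPM with HK1 overexpressed, with no overlap. The mean fell from 136.3 ± 6.66 to 117.1 ± 5.23 CPM (SD, n = 3), a log2 fold change of -0.22 with a standard error of 0.0558, a 95% interval of -0.34 to -0.10 and edgeR's adjusted p of 0.0270. The call was lost with library totals only (edgeR's adjusted p of 0.0663), without control replicate 3 (0.0517) and without HK1-overexpressing replicate 1, 2 or 3 (0.179, 0.151 and 0.0546). The table held 4 named pseudogenes of TOMM40 with 1131 counts, against 14482 for TOMM40.

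TOMM20, the receptor subunit that binds presequences and is widely used as a marker of mitochondrial mass, came next by p. It gave 267.3, 274.1 and 280.1 CPM in controls, against 254.7, 244.5 and 240.6 CPM with HK1 overexpressed. Each HK1-overexpressing library lay below each control, but edgeR's adjusted p was 0.0662, for a log2 fold change of -0.15 and a 95% interval of -0.25 to -0.05. The gene passed the test without control replicate 1 (adjusted p of 0.0227) or 2 (0.0349), and 4 named pseudogenes held 1611 counts against its 29765. TOMM70, the receptor for carrier proteins, also had no overlap between groups, at 195.8 ± 6.28 and 186.5 ± 1.23 CPM (SD, n = 3), with a log2 fold change of -0.07 and edgeR's adjusted p of 0.438. SAMM50, which inserts barrel proteins into the outer membrane, gave 58.3, 70.5 and 67.6 CPM in controls, against 59.6, 59.0 and 60.9 CPM with HK1 overexpressed, so control replicate 1 lay below all 3 of these and the other controls above them. Without that control its log2 fold change was -0.20 with edgeR's adjusted p of 0.0274, against -0.13 and 0.315 with it. TOMM22, the central TOM receptor, TIMM23, the inner membrane presequence channel, TIMM44, which ties the import motor to that channel, and MTX1, a metaxin of outer membrane assembly, had log2 fold changes from -0.05 to -0.01. Of the annotated exon bases of MTX1, 77.8% were shared with other genes, so its counts may come from a small part of its exons.

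No fusion gene and no fission gene was called by edgeR, DESeq2 or limma-voom, and 0 of the 8 had an unadjusted p under 0.05 in edgeR. Of all 16734 tested genes, edgeR called 8.02%, and 1785 higher and 1882 lower genes had an unadjusted p under 0.05. At such shares, a count of 0 among 8 genes says little about these roles. MFN1, a mitofusin that tethers outer membranes, gave 63.9, 59.9 and 67.6 CPM in controls, against 72.8, 66.8 and 69.8 CPM with HK1 overexpressed. The groups overlapped only through control replicate 3 and HK1-overexpressing replicate 2, and edgeR's adjusted p was 0.242 for a log2 fold change of 0.13. Its paralog MFN2, which also links mitochondria to the endoplasmic reticulum, had a log2 fold change of -0.04 with a 95% interval of -0.15 to 0.06. OPA1, the dynamin-like GTPase of inner membrane fusion, gave 123.4, 93.6 and 109.1 CPM in controls, against 110.9, 108.9 and 106.3 CPM with HK1 overexpressed. The controls spanned all HK1-overexpressing values, with a log2 fold change of -0.00 and a 95% interval of -0.18 to 0.18.

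DNM1L, the dynamin-related GTPase that cuts mitochondria, stood at 183.7 ± 8.44 and 187.8 ± 3.88 CPM (SD, n = 3). Its adaptors on the outer membrane gave log2 fold changes of -0.17 for FIS1, -0.07 for MFF, -0.04 for MIEF1 and 0.08 for MIEF2. FIS1 had the highest ratio of highest to lowest control among the 38 genes, 1.37, at 57.0, 78.0 and 64.8 CPM against 61.0, 56.4 and 59.7 CPM in HK1-overexpressing libraries. Control replicate 1 lay among the HK1-overexpressing values, and without it the log2 fold change was -0.27 with edgeR's adjusted p of 0.0197, against 0.349 with it. MFF gave 141.2, 141.1 and 143.3 CPM in controls, against 139.7, 131.3 and 133.5 CPM with HK1 overexpressed, so the groups did not overlap, with edgeR's adjusted p of 0.428.

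The 4 protease genes gave log2 fold changes from -0.09 to -0.00, none of them called by edgeR, DESeq2 or limma-voom and 0 of 4 at an unadjusted p under 0.05 in edgeR. Beside these few genes, edgeR called 8.02% of all 16734 tested genes, with 1785 higher and 1882 lower at an unadjusted p under 0.05. LONP1 and CLPP belong to the proteases of the matrix, and YME1L1 and AFG3L2 to those of the inner membrane, facing the intermembrane space and the matrix. AFG3L2 stood at 142.6 ± 2.12 and 142.5 ± 2.39 CPM, and YME1L1 at 112.9 ± 6.38 and 112.5 ± 1.47 CPM (SD, n = 3). The widest of the 4 intervals, that of CLPP, ran from -0.20 to 0.08. With library totals only, 2 of the 4 were positive.

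Levels between genes were compared per exon length, as CPM per kilobase of all annotated exon bases on the primary chromosome, which understates genes with many unused exons. TIMM23 led in controls at 83.0 ± 4.95 CPM per kilobase, followed by TOMM20 at 79.6 ± 1.86 (SD, n = 3). These leading levels differed by less than the SD of TIMM23. A copy of the gene, TIMM23B, held 90 to 119 counts per library, against 1668 to 2016 for TIMM23. Some TIMM23 fragments may therefore have been lost or split. TOMM22 at 54.3 ± 2.23 and FKBP8 at 53.2 ± 2.68 CPM per kilobase came next and also lay within 1 SD of each other. In HK1-overexpressing libraries the same 4 genes gave 81.4 ± 2.29, 71.7 ± 2.12, 53.7 ± 0.784 and 49.8 ± 1.04 CPM per kilobase. PPARGC1B was lowest in both groups, at 1.04 ± 0.111 and 1.03 ± 0.0407. BNIP3 exceeded BNIP3L per length, at 16.1 ± 0.424 against 10.1 ± 0.475 CPM per kilobase in controls and 18.6 ± 0.607 against 12.8 ± 0.185 in HK1-overexpressing libraries. Of the called genes, TOMM40 ranked 7th of 38 in controls and NRF1, at 5.65 ± 0.151 CPM per kilobase, ranked 32nd.

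**Figure D3:**
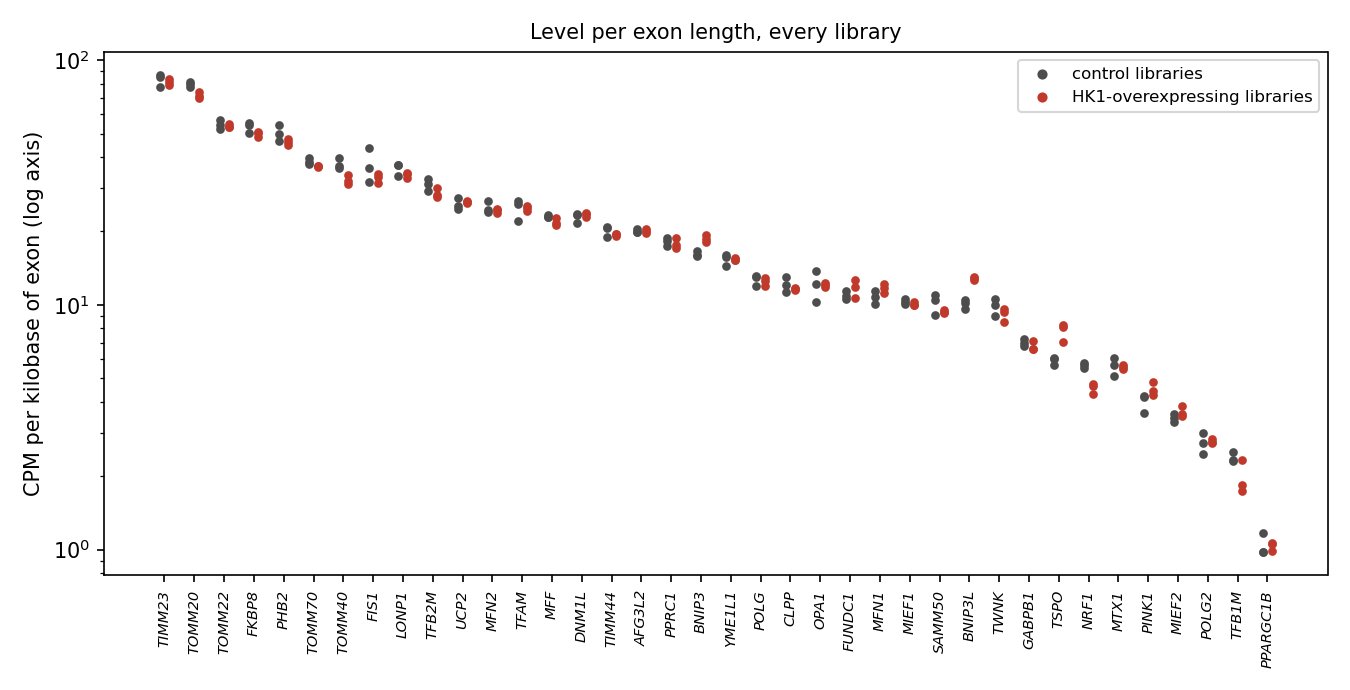
Level of each of the 38 genes in CPM per kilobase of exon (log axis) in every library, coloured by group. TIMM23 and TOMM20 are highest and PPARGC1B is lowest, and for most genes the points of both groups lie together.

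Related genes were set against each other as log2 count ratios within each library, which need no scaling between libraries. The ratio of BNIP3L to BNIP3 was -0.61, -0.68 and -0.62 in controls, against -0.48, -0.57 and -0.46 with HK1 overexpressed. The groups did not overlap, with a difference of 0.13. The two-sided exact permutation p was 0.1, which is the smallest that 3 against 3 libraries allow, and 0.3 after Benjamini-Hochberg adjustment over the 6 pairs compared. The differences were 0.17 for MFN1 to MFN2, 0.12 for MIEF2 to MIEF1 and 0.18 for TFB2M to TFB1M, each with an exact permutation p of 0.2, and the groups overlapped in all 3. POLG2 to POLG and PPARGC1B to PPRC1 differed by 0.06 and 0.01, with exact permutation p-values of 0.8 and 1.

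Promoter sequences were taken from RefSeq on GRCh38.p14, from 250 bases before to 50 after the RefSeq gene start. RefSeq starts can differ from the positions given above, which come from the annotation of the counts. For TOMM40 the stretch begins at 44891004, inside the gene's span given above, which begins at 44890569. Promoters were matched for 31 of the 38 genes. Those of BNIP3, which rose, TOMM40, which fell, and TOMM20, the uncalled gene of smallest p, are printed 5′ to 3′ on the gene's strand. They are shown because all 3 hold the core letters known to be bound by the NRF1 protein. Of the other called genes, TSPO held no such match, and BNIP3L and NRF1 had no matched promoter. Capitals mark matches on either strand to the NRF1 core GCGCANGC, the GABP core CCGGAAG and the E-box CACGTG, and 1 run of capitals in BNIP3 is made of overlapping NRF1 core matches.
BNIP3, chr10:131981874-131982173, minus strand: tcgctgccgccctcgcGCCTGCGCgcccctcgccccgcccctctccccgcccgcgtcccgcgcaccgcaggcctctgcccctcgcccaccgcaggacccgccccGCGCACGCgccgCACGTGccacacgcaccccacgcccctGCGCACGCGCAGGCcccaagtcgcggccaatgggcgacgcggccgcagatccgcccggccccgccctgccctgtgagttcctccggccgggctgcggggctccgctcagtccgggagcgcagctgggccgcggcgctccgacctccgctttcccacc
TOMM40, chr19:44891004-44891303, plus strand: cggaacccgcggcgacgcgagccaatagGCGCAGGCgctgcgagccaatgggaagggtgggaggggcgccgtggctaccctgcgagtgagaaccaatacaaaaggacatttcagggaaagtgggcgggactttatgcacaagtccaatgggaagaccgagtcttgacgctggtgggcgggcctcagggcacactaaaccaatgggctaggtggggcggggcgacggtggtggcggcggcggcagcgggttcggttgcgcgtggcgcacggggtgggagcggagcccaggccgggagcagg
TOMM20, chr1:235128788-235129087, minus strand: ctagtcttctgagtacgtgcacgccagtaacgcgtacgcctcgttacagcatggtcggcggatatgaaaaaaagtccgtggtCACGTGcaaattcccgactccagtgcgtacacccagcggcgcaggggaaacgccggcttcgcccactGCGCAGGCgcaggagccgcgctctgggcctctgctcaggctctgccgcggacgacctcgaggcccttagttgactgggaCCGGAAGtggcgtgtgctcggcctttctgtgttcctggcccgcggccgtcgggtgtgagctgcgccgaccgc

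The NRF1 core was present in the promoters of 16 of the 31 matched genes, or 51.6%, against 24.4% of the 11212 tested genes with a promoter and 14.2% of all 27305 genes in the promoter table. The GABP core was present in 11 (35.5%), against 21.6% and 12.2%. The E-box was present in 3, BNIP3, TOMM20 and LONP1 (9.68%), against 12.3% and 8.77%. The 16 genes with the NRF1 core had a median log2 fold change of -0.03, with 1 called higher and 1 lower. The 15 without it also had a median of -0.03, with 1 called higher and 0 lower. Over all tested genes with a promoter, the 2740 with the core had a median of -0.01, with 76 called higher and 130 lower. The 8472 without it had a median of 0.01, with 420 called higher and 393 lower. As shares of these genes, calls of lower were about as frequent with the core as without it. Calls of higher were less frequent with it. A match describes these letters only and is not evidence of binding.

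Beyond the 38 genes, 128 further genes of these roles, or of cristae organisation and matrix chaperones, were listed, of which 120 were tested. Of these, 4 rose and 5 fell, 7.5% in all against 8.02% of all tested genes, and their median log2 fold change was -0.01. At an unadjusted p under 0.05 there were 12 positive and 15 negative of the 120, beside 1785 and 1882 of all 16734 tested genes. Leaving out single libraries gave between 0 and 10 called higher and between 0 and 11 called lower, the most without control replicate 1. In the mitophagy group OPTN, an adaptor that links ubiquitinated mitochondria to LC3, rose from 138.0 ± 2.91 to 159.7 ± 2.18 CPM (SD, n = 3; log2 fold change 0.21, edgeR's adjusted p of 0.0144). NIPSNAP1, a matrix protein that is displayed on damaged mitochondria, fell from 261.9 ± 11.5 to 219.2 ± 2.92 CPM (SD, n = 3; log2 fold change -0.26, edgeR's adjusted p of 0.00492). Both lay apart between groups in every library.

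PPARGC1A, the coactivator PGC-1alpha, gave 14.7, 10.2 and 12.8 CPM in controls, against 15.7, 16.2 and 17.7 CPM with HK1 overexpressed. It rose by 0.39 on the log2 scale, with a standard error of 0.113 and edgeR's adjusted p of 0.0489. The call was lost in 8 of 17 alternatives, among them DESeq2 (adjusted p of 0.0502), limma-voom (0.0604), omission of control replicate 2 (0.074) or 3 (0.145) and omission of each HK1-overexpressing replicate (0.104 to 0.203). Without control replicate 2, which was the lowest, its log2 fold change was 0.27.

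Among genes of motility and division, TRAK2, an adaptor of mitochondrial transport along microtubules, rose from 85.2 ± 3.26 to 99.0 ± 1.31 CPM, and SPIRE1, an actin nucleator at division sites, from 25.9 ± 0.637 to 32.3 ± 1.70 CPM (SD, n = 3). Their log2 fold changes were 0.22 and 0.32, with edgeR's adjusted p-values of 0.0215 and 0.00999. MGME1, an exonuclease of mitochondrial DNA replication, fell from 111.3 ± 4.15 to 95.2 ± 2.68 CPM (SD, n = 3; log2 fold change -0.22, edgeR's adjusted p of 0.0178). The matrix chaperone genes HSPD1, HSPE1 and TRAP1 fell, with log2 fold changes of -0.16, -0.22 and -0.20 and edgeR's adjusted p-values of 0.0308, 0.0483 and 0.0466. HSPD1 lost its call in 8 of 17 alternatives, HSPE1 in 11 and TRAP1 in 13. Without any 1 HK1-overexpressing replicate, MGME1 and TRAK2 were not called either (edgeR's adjusted p of 0.0842 to 0.123 and 0.0857 to 0.138). TRAK2 was also lost without control replicate 3 (0.073). OPTN was lost without any 1 HK1-overexpressing replicate (0.0761 to 0.0886) but not without a control. NIPSNAP1 was lost without HK1-overexpressing replicate 2 (0.0576) and SPIRE1 without HK1-overexpressing replicate 3 (0.0853).

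The 32 further import genes that were tested held no call in edgeR's test, nor in DESeq2 or limma-voom. Without control replicate 1, edgeR called 7 of them, where it called 13.1% of all tested genes. At an unadjusted p under 0.05, 4 of them were lower and 0 higher, beside 1882 lower and 1785 higher of all 16734 tested genes. Their median log2 fold change was -0.06, the same to 2 decimals as that of the 8 import genes described above. Of the 32, 24 were negative, beside 8130 of all 16734 tested genes. The 6 tested genes of cristae organisation and the 5 tested relatives of the carriers had no call in edgeR, DESeq2 or limma-voom, with 1 lower and 1 higher at an unadjusted p under 0.05 in each set. Without control replicate 1, edgeR called 1 of the carriers and none of the cristae genes, with the same 13.1% of all tested genes called.

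**Figure D4:**
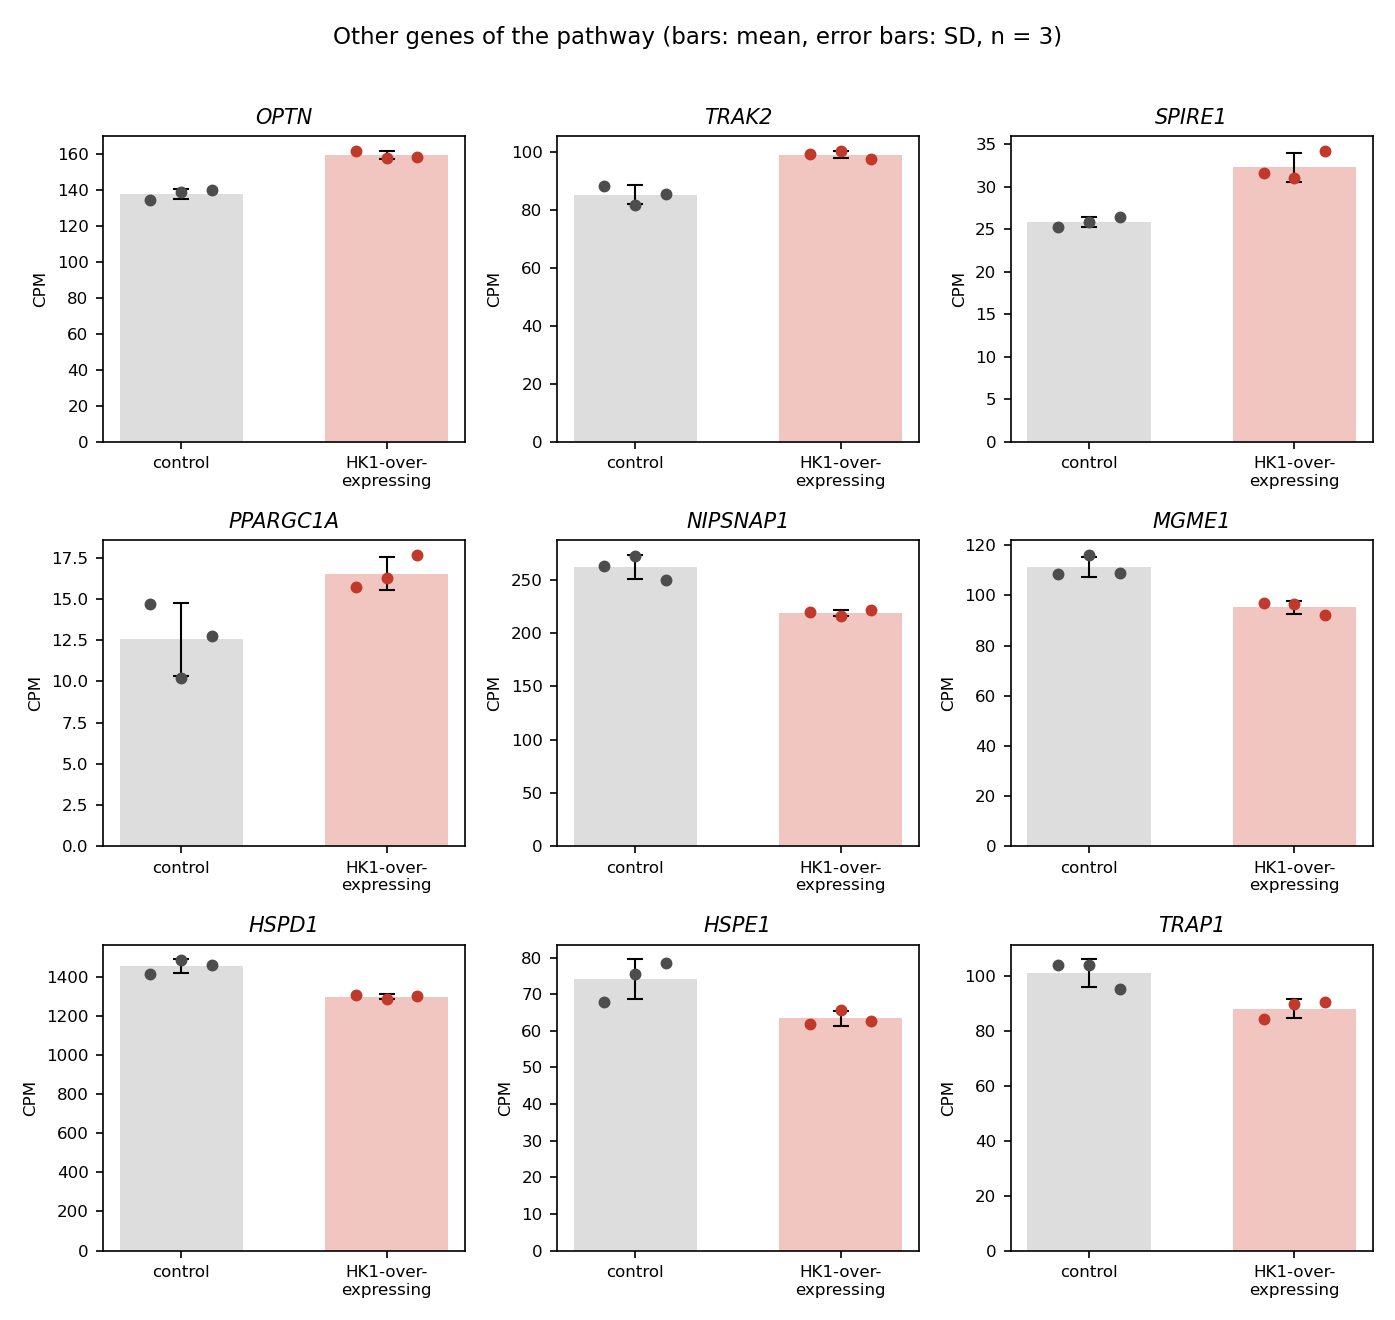
Level in CPM (y axis) of the 9 called genes among the further genes of the pathway, in each library (points) of both groups (x axis), with bars for the mean and error bars for the SD of 3 libraries. OPTN, TRAK2, SPIRE1 and PPARGC1A are higher and NIPSNAP1, MGME1, HSPD1, HSPE1 and TRAP1 lower in every HK1-overexpressing library than in any control.

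The spread within groups was uneven across the 38 genes. For 27 of them the range was wider among controls than among HK1-overexpressing libraries, and the median ratio of highest to lowest library was 1.10 in controls and 1.06 in HK1-overexpressing libraries. The largest ratio in HK1-overexpressing libraries was 1.33, for TFB1M. Control replicate 1 stood above control replicate 2 for OPA1, with 9.04 kilobases of exon, and below it for FIS1, with 1.79 kilobases. Across the 38 genes the log2 ratio of these controls had a Spearman rho of 0.547 and a Pearson r of 0.54 with exon length, and the points share both libraries. Over all 16734 tested genes the Spearman rho was 0.258. Across the 38 genes exon length and the log2 fold change between groups had a Spearman rho of 0.09. The part of this difference between controls in any result was not tested.

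**Figure D5:**
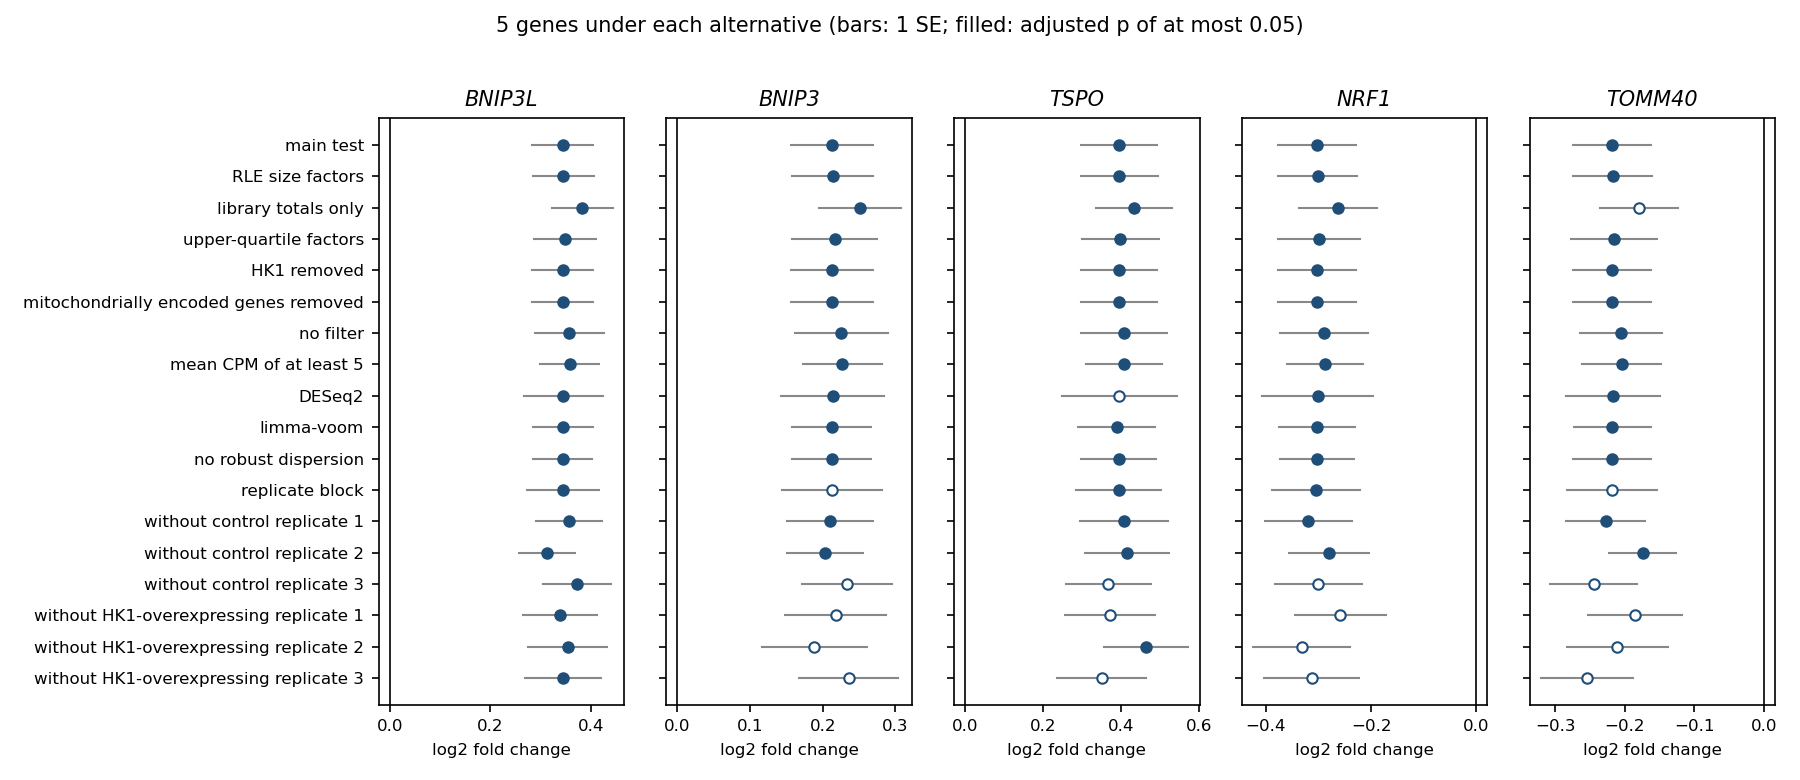
Log2 fold change with 1 standard error (x axis) of the 5 called genes under the reported analysis and each alternative (y axis), filled where the adjusted p is at most 0.05. BNIP3L is filled throughout, while the other 4 genes keep their sign and lose the call under 4 to 6 of 17 alternatives, most often when a library is left out.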

How the data were processed

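RNA-seq counts of 6 Huh7 libraries, 3 control and 3 HK1-overexpressing by their labels, were used. TRIZOL extraction and a stranded mRNA kit are given per the labels' protocols. The authors deposited raw counts per gene, made with featureCounts 1.5.3 on read pairs, summing exons by gene name in GENCODE 47, per the file headers. The deposited values were whole numbers in all 6 columns, so they are raw counts and not expected or estimated counts. Trim Galore, Subread and hg38 are named per the submitters' processing notes. The recorded command sets no option for strand, for fragments that map to several places or for fragments in several genes, so antisense partners, overlapping genes and pseudogenes may take or remove counts.

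Library totals were 16771835 to 20823072. In R 4.3.3, edgeR 4.0.16 was run over the whole table with TMM scaling, filterByExpr, a robust quasi-likelihood fit of group alone, and Benjamini-Hochberg adjustment over all 16734 tested genes at 0.05. CPM values are edgeR's normalized counts, each count divided by the TMM-scaled library total over tested genes. Standard errors come from the unshrunken coefficient over the root of the F statistic, and intervals are at 95% with moderated degrees of freedom. Pair ratios used a pseudocount of 0.5 and a two-sided exact permutation test. On simulated counts with 50 genes seeded per fold among 16291 tested genes, the fit recovered 58% at 1.25-fold and 94% at 1.5-fold, with 15 false calls, 7.94% of calls. The simulation gave both groups the same dispersion per gene, whereas the real controls varied more than the HK1-overexpressing libraries. It also seeded no genes of low level in controls. Its shares therefore need not hold for the real data. The fall in power below 1.5-fold bears on the sizes reported here.

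Named genes were all called members, the 4 uncalled members of smallest p and the 4 of highest level per length with values, and the rest mostly by fold change. Of the further genes, up to 3 called per role and PPARGC1A were named, and 1 gene that the rule also names is not reported here. PINK1, OPA1, FIS1, SAMM50, TFAM, MFF, TOMM70, UCP2, AFG3L2, YME1L1, DNM1L and PPARGC1B were given further values after these were seen. The members and lists were chosen with earlier results of these data known. The alternatives tried were RLE, upper-quartile or no size factors, removal of HK1 or of the mitochondrially encoded genes, a filter at a mean CPM of 5 or none, limma 3.58.1 with voom, DESeq2 1.42.0, a fit without robust dispersion, a replicate block and omission of each library.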

Additional observations from a re-analysis of the deposited data

How the results depend on the processing

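No gene among the 38 that was called changed sign in any of the 17 alternatives, and BNIP3L was called in all of them. Of the 38 genes, 1 was called lower with library totals only (NRF1) and 1 with the replicate block (NRF1), against 2 in the reported analysis. Leaving out 1 library gave 1 to 3 called higher and 0 to 6 called lower. BNIP3L alone was called without control replicate 3, HK1-overexpressing replicate 1 or HK1-overexpressing replicate 3. Over all tested genes, leaving out 1 library gave 536 to 2257 calls, against 1342. For the further genes of the pathway, leaving out 1 library gave 0 to 10 called higher, against 4, and 0 to 11 called lower, against 5. Their count called lower was 2 with library totals only, 2 with upper-quartile factors and 2 with the replicate block, and 3 with each of no filter, a mean CPM of at least 5, DESeq2, limma-voom and no robust dispersion. Replicates of the same number in both groups had correlations of deviations of 0.00707, 0.0579 and -0.0304, so the numbers were not taken to pair the libraries. With the replicate block, BNIP3 (adjusted p of 0.0753), TOMM40 (0.0521), TRAK2 (0.0538), HSPD1 (0.1), HSPE1 (0.0673) and TRAP1 (0.091) were not called. Leaving a library out leaves 5 libraries, with fewer degrees of freedom. With 3 libraries a group, small changes in genes of this depth were often not detectable.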

Other observations

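The 5 of 8 hepatocyte and hepatoma markers that were called all fell in HK1-overexpressing libraries: ALB (4935 ± 108 to 3422 ± 68.6 CPM), AFP (1895 ± 32.2 to 1277 ± 37.3 CPM), APOA1 (45.5 ± 2.01 to 28.0 ± 0.731 CPM), TTR (138.7 ± 11.9 to 114.4 ± 3.84 CPM) and GPC3 (513.0 ± 14.2 to 375.6 ± 4.28 CPM; SD, n = 3). Their log2 fold changes ran from -0.70 (APOA1) to -0.28 (TTR), beside -0.30 to 0.39 among the 38 mitochondrial genes.

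TOMM6, a small TOM subunit, and APOOL, a protein of cristae organisation, gave 0 counts in all 6 libraries, which allows up to 3 counts in each. All exon bases of TOMM6 (100%) are shared with another annotated gene, and fragments in shared exons were not counted. For APOOL 4.92% were shared.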
